A study of Danio rerio with 15 samples.

Results

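The comparison described here set whole zebrafish larvae exposed to 0.1 µM perfluorooctanesulfonic acid (PFOS) against control larvae, with 3 RNA-seq libraries per group. These are 6 of the 15 libraries of a dose series that also holds 1, 5 and 10 µM PFOS, and the title of the series places it in work on developmental neurotoxicity. Every larva was of the wild-type AB strain and was collected at 120 hours post-fertilization, and RNA came from the whole body. The labels name the control group only as control, so a vehicle is not stated, and they do not give the start or length of the exposure. Whether replicate libraries represent different clutches or different exposure vessels is not labelled, so the p-values reflect the scatter among these 6 libraries and nothing wider, and some of that scatter may be technical.

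PFOS is a persistent fluorinated surfactant whose fluorinated chain and sulfonate head resemble a fatty acid. It binds plasma and liver fatty acid binding proteins, activates the nuclear receptor PPARα in rodents, and collects in liver and blood. Zebrafish larvae at this age swim, feed on yolk remnants and early prey, and have a working liver, exocrine pancreas, heart and brain, all of which contribute RNA to a whole-body library.

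The 0.1 µM libraries held 14122138 to 19978125 estimated counts and the control libraries 13447347 to 15076888. Genes of the mitochondrial genome took 4.01% to 4.58% of counts over the 6 libraries. Among the 32520 deposited genes, 6048 had no count in any of the 6 libraries, while 20939 passed the filter on low counts and were tested. Defining markers of larval tissues were present in both groups, here as the lowest to the highest TPM (reads scaled to transcript length and library size). The neuronal gene elavl3 lay at 85.1 to 94.7 TPM at 0.1 µM and 78.3 to 86.3 TPM in controls. The fast muscle gene mylpfa lay at 4884 to 6014 TPM at 0.1 µM and 5262 to 6718 TPM in controls, and the liver gene fabp10a at 1881 to 1970 TPM at 0.1 µM and 1812 to 2331 TPM in controls. The oestrogen-induced yolk protein gene vtg1 was at most 0.16 TPM at 0.1 µM and 0.22 TPM in controls.

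Gene expression at 0.1 µM PFOS lay close to that of controls. In edgeR's quasi-likelihood test on the 6 libraries, 0 of 20939 genes (0%) had a Benjamini-Hochberg adjusted p below 0.05. At an unadjusted p under 0.05 there were 251 genes (1.2%), of which 119 were higher (0.568%) and 132 lower (0.63%) at 0.1 µM. DESeq2 called 1 gene, zgc:158463, and limma-voom called 0, while an unadjusted p under 0.05 was reached by 82 genes in DESeq2 and 258 in limma-voom. The median log2 fold change over all tested genes was -0.00086, so scaling left the centre of all genes near 0. The count at an unadjusted p under 0.05 was 401 without exposed library 3. A 1.5-fold or larger difference was seen in 276 genes (1.32%), and in 213 of 20194 genes (1.05%) with a level of at least 1 in the higher group, in CPM (counts scaled to library size).

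The labels number the libraries of each group 1, 2 and 3, and the number accounted for much more of the spread than the exposure did. In log2 CPM over the 6 libraries, the group took 12.9% of the sum of squares with 1 degree of freedom, the library number 62.3% with 2, and the remainder 24.8% with 2. Among the 11525 genes with a mean of at least 10 CPM the shares were 10.5%, 70.5% and 18.9%. Per degree of freedom the group held 1.11 times the remainder in those genes, and the number 3.73 times.

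With the library number as a block in the same edgeR test, 7 of 20939 genes passed at an adjusted p below 0.05 (0.0334%), 6 higher and 1 lower at 0.1 µM. At an unadjusted p under 0.05 there were 955 genes (4.56%), 467 higher (2.23%) and 488 lower (2.33%). The coefficient of variation between libraries from the common dispersion was 12.3% without the block and 6.20% with it. The 7 calls depended on which libraries entered the fit. None of the 7 passed when the 1 µM libraries were added to the block fit (0 genes, 599 at an unadjusted p under 0.05), or the 1 and 5 µM libraries (0 genes, 293 at an unadjusted p under 0.05).

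**Figure D1:**
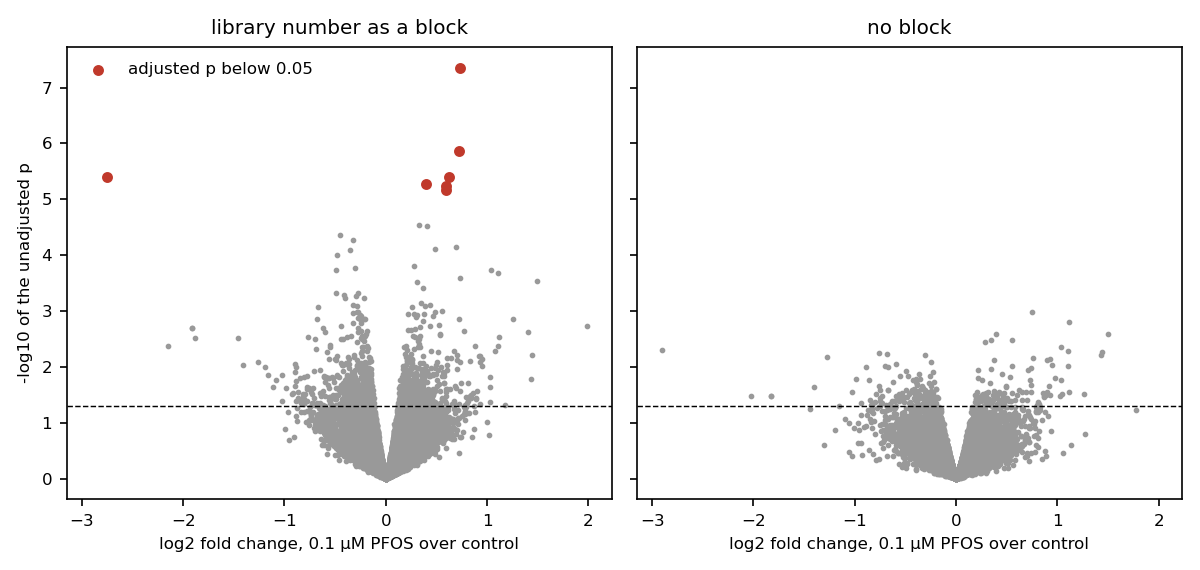
Each point is 1 of 20939 tested genes, placed by its log2 fold change of 0.1 µM PFOS over control (x axis) and the -log10 of its unadjusted edgeR p (y axis), with the library number as a block (left) and without it (right). The 7 red points have an adjusted p below 0.05, the dashed line marks an unadjusted p of 0.05, and without the block no gene passed.

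Of the 7 genes that passed with the block, zgc:158463 had the smallest p. It lies on chromosome 5 from 824709 to 825920 in the deposited coordinates, for which no genome build is given. Its level was 945, 1337 and 1509 CPM at 0.1 µM, against 692, 701 and 859 CPM in controls. The groups did not overlap, and each exposed library lay above the control library of its number. With the block it was higher by 0.73 on the log2 scale (SE 0.0739, adjusted p = 0.000918), and without the block by 0.75 (SE 0.161, adjusted p = 0.999). It was the gene that passed in DESeq2 without the block, and it also passed in the block fit of DESeq2 and of limma-voom.

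The long noncoding RNA gene CR383676.2 on chromosome 14 from 45631236 to 45638712 had 978, 1172 and 1064 CPM at 0.1 µM, against 739, 819.6 and 888 CPM in controls. Its groups did not overlap either, and its log2 fold change was 0.39 (SE 0.0581, adjusted p = 0.0203 with the block). A second long noncoding RNA gene, CT027638.1 on chromosome 20 from 55169000 to 55169889, had 984, 987 and 1059 CPM at 0.1 µM, against 547, 596 and 922 CPM in controls. All 3 exposed libraries stood above all 3 controls, and control 3 was close to them (log2 fold change 0.59, SE 0.0890, adjusted p = 0.0205 with the block). Over all 325 tested long noncoding RNA genes, summed levels were 4434, 4478 and 4504 CPM at 0.1 µM and 3609, 3752 and 4167 CPM in controls. These sums include both genes just named, which hold a large part of them. The sums therefore do not show whether the other long noncoding RNA genes differed. With the block, 16 of the 325 were higher and 10 lower at an unadjusted p under 0.05, against 2.23% and 2.33% of all genes. Whether counting used the strand is not stated, so reads of overlapping genes on the opposite strand cannot be told apart from theirs.

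AL935186.10 on chromosome 4 from 77561226 to 77561679 had 27.6, 48.8 and 54.6 CPM at 0.1 µM, against 20.5, 23.9 and 34.2 CPM in controls. The groups overlapped, since exposed library 1 lay below control 3, while every pair of the same number was higher at 0.1 µM. On the log2 scale it was higher by 0.72 (SE 0.0947, adjusted p = 0.0141 with the block). The protocadherin gene pcdh2ab9 on chromosome 14 from 2118775 to 2285955 belongs to a cluster of cell adhesion genes used by neurons for self recognition. It had 57.2, 114 and 129 CPM at 0.1 µM, against 46.5, 59.3 and 85.8 CPM in controls. Its groups overlapped, and within pairs it was higher in all 3, by 0.62 on the log2 scale (SE 0.0897, adjusted p = 0.0203 with the block). A second gene carries the same symbol (log2 fold change 0.36, unadjusted p = 0.0363 with the block), so the split of reads within the cluster is uncertain.

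The cardiac actin gene actc1a on chromosome 19 from 47549568 to 47555956 differed more by library number than by exposure. It had 11.5, 69.2 and 34.1 CPM at 0.1 µM, against 7.29, 41.3 and 26.2 CPM in controls. The numbers ran in the same order in both groups, with library 1 lowest and library 2 highest, and the groups overlapped widely. Its difference with the block was 0.60 on the log2 scale (SE 0.0885, adjusted p = 0.0203). Without the block the difference turned to -0.15 when exposed library 2 was left out. The other gene with the symbol actc1a, on chromosome 20 from 29476852 to 29483514, stood on the other side, at 313, 253 and 242 CPM at 0.1 µM, against 352, 287 and 285 CPM in controls (log2 fold change -0.20, unadjusted p = 0.00261 with the block). Reads of near-identical actin genes can be split between copies, so both values are uncertain.

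The 1 gene that fell in the block fit was si:dkey-275b16.2 on chromosome 13 from 30655172 to 30662403. It had 0.899, 0.714 and 0.740 CPM at 0.1 µM, against 3.34, 1.13 and 13.6 CPM in controls. The exposed libraries were low and alike, and the controls spread widely, with control 3 far above the others. Its level fell by 2.75 on the log2 scale with the block (SE 0.395, adjusted p = 0.0203), and without the libraries numbered 3 the difference was -1.45 with an adjusted p of 0.531. A second gene with this symbol did not pass (log2 fold change 0.36, unadjusted p = 0.0544, both with the block). All 7 genes had 1 direction in all 3 pairs, so leaving out a number from the block fit could not turn it. The adjusted p of actc1a was 0.0766 without the libraries numbered 2. The block fit of DESeq2 called 3 (zgc:158463, CR383676.2 and AL935186.10) and that of limma-voom called 6 among its 8 calls, all but actc1a. Leaving out the libraries numbered 1, 2 or 3 left 41, 71 or 18 calls, which included 7, 6 and 6 of these genes. These fits reuse 4 of the libraries that picked the genes, so the repeats are not separate support. The calls rose above 7 although fewer libraries were used, and the cause was not tested.

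**Figure D2:**
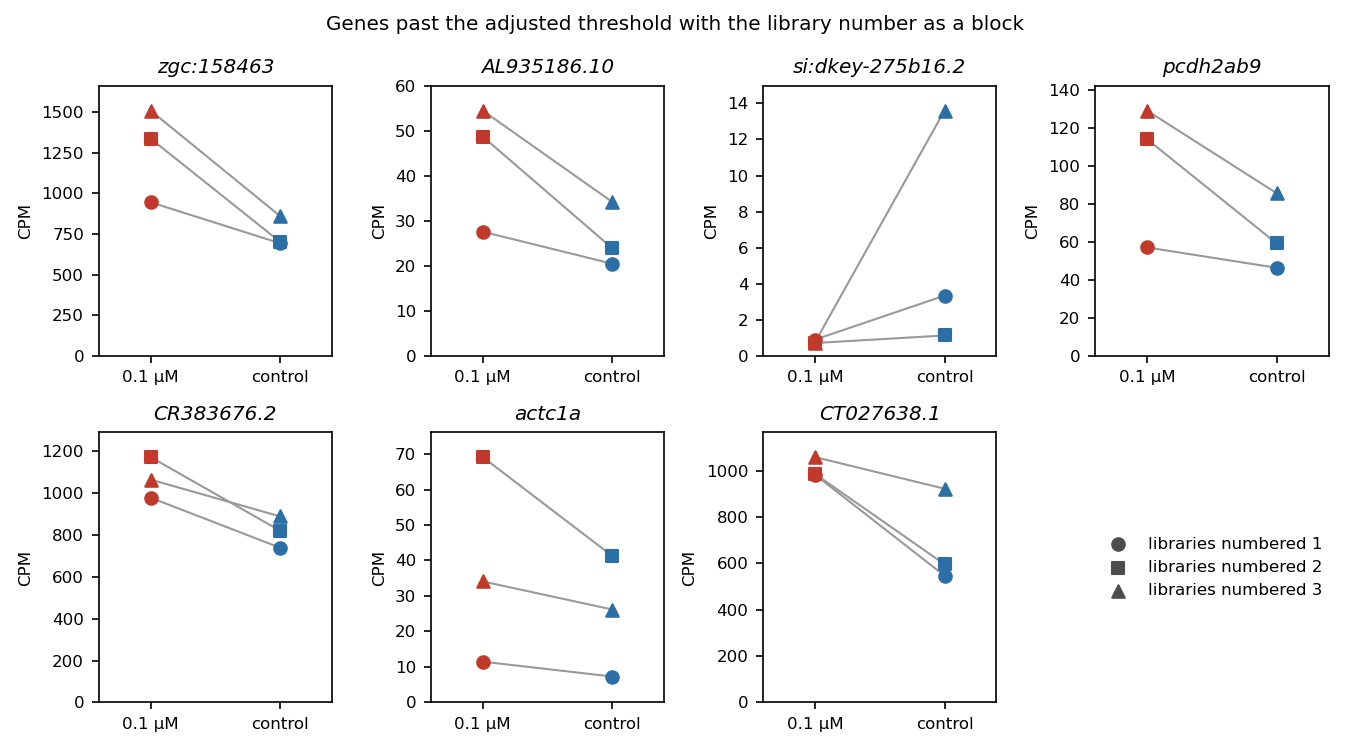
CPM (y axis, from 0) of the 7 genes with an adjusted p below 0.05 in the block fit, in the 3 libraries at 0.1 µM (red) and the 3 controls (blue), with lines joining libraries of the same number. In zgc:158463, CR383676.2 and CT027638.1 all exposed libraries lie above all controls, and in actc1a the library number separates the points more than the exposure does.

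The same genes were followed through the dose series. CPM in dose series are scaled over all 15 libraries, so they differ slightly from those above, and each dose is set against the same 3 controls. For zgc:158463 the mean level was 751 ± 92.3 CPM in controls and 1265 ± 287, 1017 ± 391, 1169 ± 239 and 1397 ± 341 CPM at 0.1, 1, 5 and 10 µM (SD, n = 3 each). At 10 µM it passed the threshold over control (log2 fold change 0.89, adjusted p = 0.0260), as did CT027638.1 (0.81, adjusted p = 0.0344) and AL935186.10 (1.16, adjusted p = 0.00866). CR383676.2 had log2 fold changes of 0.39, 0.02, 0.12 and 0.06 over the 4 doses, so the value at 0.1 µM was the highest of these. The level of si:dkey-275b16.2 ran in single libraries from 0.23 to 17.3 CPM over the 9 libraries of the 3 higher doses, a range that holds all 6 values of the present comparison.

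Genes just outside the adjusted threshold of the block fit were named by their unadjusted p. On the higher side these were rhcga, with an adjusted p of 0.0698, then vamp8 and nos2a. An equal adjusted p was given to zgc:92137, which lies outside the naming rule and was chosen after its values were seen. The ammonia channel gene rhcga, active in skin ionocytes, had 138, 60.0 and 46.6 CPM at 0.1 µM, against 93.7, 48.3 and 37.8 CPM in controls (log2 fold change 0.40). Library 1 was highest in both groups. Without the block the log2 fold change of rhcga ran from -0.17 to 0.93 with libraries left out. The block fit of limma-voom called rhcga and zgc:92137. The vesicle fusion gene vamp8 had 30.4, 20.7 and 23.4 CPM at 0.1 µM, against 22.2, 16.5 and 14.5 CPM in controls (adjusted p = 0.123). The inducible nitric oxide synthase gene nos2a had 14.1, 6.50 and 1.36 CPM at 0.1 µM, against 7.74, 4.60 and 0.731 CPM in controls (adjusted p = 0.252), again with library 1 highest in both groups. Without the block the log2 fold change of nos2a ran from -0.17 to 1.46 with libraries left out.

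On the lower side stood pde6ha, socs3a, fosab, hbae1.3 and pklr. The cone phosphodiesterase subunit gene pde6ha had 70.8, 54.6 and 53.8 CPM at 0.1 µM, against 104, 60.6 and 83.2 CPM in controls (log2 fold change -0.45, adjusted p = 0.0896 with the block). The cytokine feedback inhibitor gene socs3a had 87.7, 112 and 113 CPM at 0.1 µM, against 114, 143 and 134 CPM in controls. Its exposed libraries all lay below its controls, with exposed library 3 just under control 1 (adjusted p = 0.101). The immediate early transcription factor gene fosab had 84.6, 146 and 79.2 CPM at 0.1 µM, against 96.2, 206 and 101 CPM in controls (adjusted p = 0.123), and library 2 was highest in both groups. The liver and red cell pyruvate kinase gene pklr, of glycolysis, had 249.8, 224 and 263 CPM at 0.1 µM, against 323, 298 and 289.6 CPM in controls. It did not overlap between the groups and was lower in all 3 pairs (log2 fold change -0.31, adjusted p = 0.206 with the block).

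Without the block, no named gene had an adjusted p below 0.999, and the genes of smallest p are given as values. The 10 on the higher side, with log2 fold changes of 0.22 to 0.95, were cenpf, syt7a, gbgt1l2, zfyve28, rn7sk, hebp2, evpla, kctd14, rtkn2a and hmox1a. The mitotic kinetochore gene cenpf had 27.08, 27.15 and 29.0 CPM at 0.1 µM, against 20.6, 23.5 and 21.3 CPM in controls (log2 fold change 0.35, SE 0.0888, unadjusted p = 0.00328). The envoplakin gene evpla, of epidermal cell junctions, had 98.8, 99.2 and 94.5 CPM at 0.1 µM, against 83.0, 83.9 and 84.5 CPM in controls (unadjusted p = 0.0115). In both genes the libraries of a group lay close together and the groups did not overlap. The gene syt7a, a calcium sensor of vesicle release, had 1.75, 1.79 and 2.097 CPM at 0.1 µM, against 1.21, 0.866 and 0.878 CPM in controls, a log2 fold change of 0.93 at a level near 1 CPM. The heme oxygenase gene hmox1a, a target of the oxidative stress factor NRF2, had 21.2, 15.5 and 20.4 CPM at 0.1 µM, against 12.3, 16.7 and 10.6 CPM in controls (log2 fold change 0.53, unadjusted p = 0.0153). Its groups overlapped, and the pair numbered 2 ran against the other pairs.

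The 10 genes of smallest p on the lower side, from -0.23 to -0.89 on the log2 scale, were cd28l, lrrc32, pklr, dqx1, avpr1aa, ftr87, dennd5a, ccdc85cb, impg2b and grk6. The T cell co-stimulator gene cd28l had 2.00, 1.79 and 1.67 CPM at 0.1 µM, against 3.34, 3.33 and 2.63 CPM in controls (log2 fold change -0.76, SE 0.214, unadjusted p = 0.00556). The gene lrrc32, whose mammalian product holds latent TGF-β at the cell surface, had 3.40, 3.50 and 3.89 CPM at 0.1 µM, against 4.78, 5.33 and 7.17 CPM in controls (-0.68, unadjusted p = 0.00581). The vasotocin receptor gene avpr1aa had 3.50, 3.00 and 3.08 CPM at 0.1 µM, against 6.45, 5.00 and 3.95 CPM in controls (-0.68, unadjusted p = 0.00988). All 10 were lower in every exposed library than in every control, which their choice by smallest p in the same libraries favours. Over all tested genes, 557 (2.66%) had their 3 exposed libraries above their 3 controls and 597 (2.85%) below.

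The serotonin receptor gene htr7a, a reference gene chosen because earlier results of these data had named it, had 0.949, 0.857 and 0.740 CPM at 0.1 µM, against 0.228, 0.400 and 0.293 CPM in controls. Its log2 fold change of 1.44 (95% interval 0.54 to 2.34, unadjusted p = 0.00548) rests on levels below 1 CPM.

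Neural genes, the subject the study names, held no list member past the adjusted threshold at 0.1 µM. Of 37 tested pan-neuronal and presynaptic genes, 0 passed the adjusted threshold with or without the block. With the block 2 were higher and 0 lower at an unadjusted p under 0.05, a share of 5.41% in either direction against 4.56% of all genes. By direction alone, 11 of the 37 were higher in all 3 pairs and 1 lower, against 12.1% and 12.3% of all genes. The exposed libraries lay above all controls in 4 genes and below in 0, against 2.66% and 2.85%. The median log2 fold change was 0.00165, against -0.00086 over all genes. The 2 were the growth cone gene gap43, with 33.1, 33.7 and 34.4 CPM at 0.1 µM, against 29.1, 32.4 and 28.4 CPM in controls, and the dendritic microtubule gene map2, with 55.3, 55.4 and 54.5 CPM at 0.1 µM, against 50.2, 53.2 and 46.2 CPM in controls. Both differed by little, at 0.17 and 0.14 on the log2 scale. The neuronal RNA-binding protein gene elavl3 averaged 229 ± 11.3 CPM at 0.1 µM and 214 ± 14.2 CPM in controls (SD, n = 3 each), with a log2 fold change of 0.09 and a 95% interval of -0.09 to 0.27. For 36 of the 37 genes the 95% interval lay within a 1.5-fold change in either direction, against 71.1% of all tested genes. The median level was 70.7 CPM in this list and 12.3 CPM over all tested genes, so the shares are not for genes of like level. The well-expressed ribosomal protein and skeletal muscle lists had shares of 98.6% and 100%.

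Transmitter and developmental genes followed. In the glutamate and GABA list 0 of 35 genes passed at an unadjusted p under 0.05 with the block, the median was 0.0140, and 31 had an interval within 1.5-fold. In the monoamine and cholinergic list 1 of 38 was higher and 2 were lower (7.89%, against 4.56% of all genes), with 26 intervals within 1.5-fold (68.4%, against 71.1%). The higher one was htr7a. The lower ones were the dopamine receptor gene drd3, at 3.00, 3.00 and 3.08 CPM at 0.1 µM, against 5.92, 5.26 and 2.49 CPM in controls, and slc5a7a, a choline transporter gene, at 6.80, 4.14 and 5.43 CPM at 0.1 µM, against 8.27, 5.66 and 7.31 CPM in controls. The slc5a7a gene was picked out after its values were seen. Of 34 neurogenesis and neurodevelopment genes 1 was higher and 1 lower (5.88%, against 4.56% of all genes). The higher one was the neurotrophin receptor gene ntrk2b (log2 fold change 0.30 with the block), and the lower one the Notch target gene her4.1 (-0.52). In that list 2 were higher in all 3 pairs and 8 lower, against 12.1% and 12.3% of all genes, and the median was -0.0526. Among 22 glia and myelin genes 0 reached an unadjusted p under 0.05. The myelin gene mbpa averaged 72.5 ± 7.07 CPM at 0.1 µM and 72.1 ± 0.746 CPM in controls (95% interval of the log2 fold change -0.19 to 0.20), and the astroglial and radial glial gene gfap 199 ± 29.5 CPM at 0.1 µM and 189 ± 26.9 CPM in controls (95% interval -0.22 to 0.37; SD, n = 3 each).

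Photoreceptor genes included 2 higher and 1 lower of 30 at an unadjusted p under 0.05 with the block (10%, against 4.56% of all genes). The green cone opsin gene opn1mw2 had 140.1, 48.9 and 90.2 CPM at 0.1 µM, against 90.8, 50.8 and 63.5 CPM in controls, and the pair numbered 2 did not share the direction of the others. The red cone opsin gene opn1lw2 had 861, 940.0 and 1087 CPM at 0.1 µM, against 719, 804 and 1068 CPM in controls (log2 fold change 0.17 with the block). Opsin genes of 1 colour lie in tandem copies, so the split of reads between them is uncertain.

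**Figure D3:**
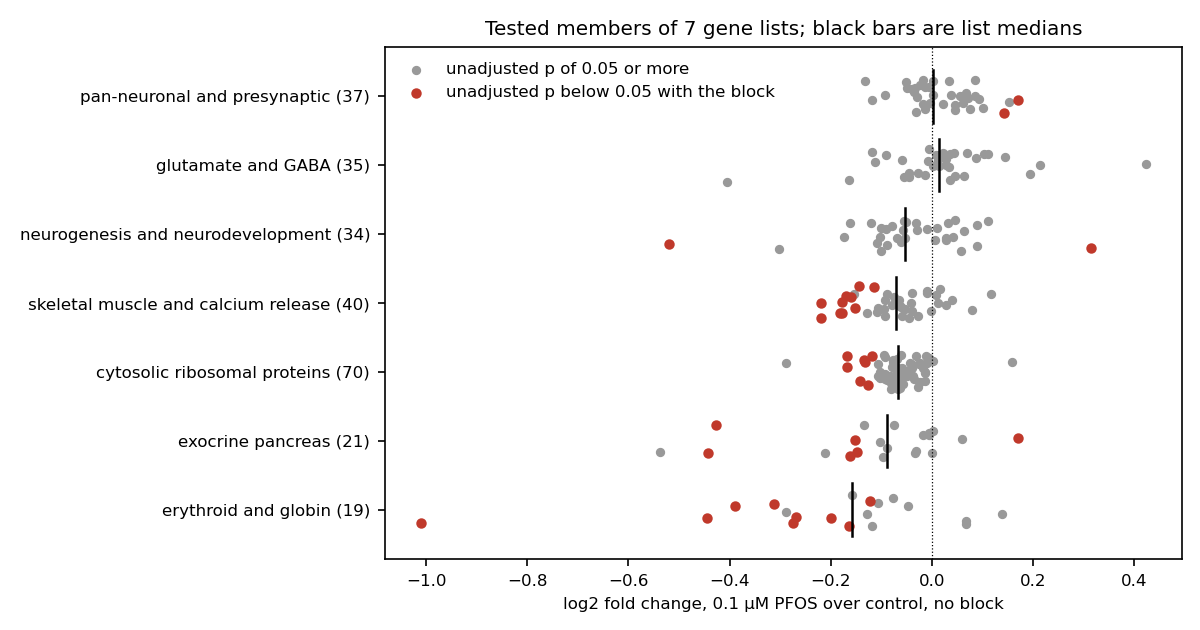
Log2 fold change of 0.1 µM PFOS over control without the block (x axis) for every tested member of 7 gene lists (rows, number of genes in brackets), with list medians as black bars. Red points had an unadjusted p below 0.05 in the block fit, as did 4.56% of all genes. They were 9 of 19 erythroid, 10 of 40 muscle and 7 of 70 ribosomal protein genes, all lower. Of 21 pancreas genes 5 were lower and 1 higher, and of 34 neurogenesis genes 1 was lower and 1 higher. Of 37 pan-neuronal genes 2 were higher and 0 lower, and of 35 glutamate and GABA genes 0 were red.

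The list with the largest share of genes at an unadjusted p under 0.05 in the block fit was that of erythroid and globin genes, with 9 of 19 lower and 0 higher (47.4%, against 4.56% of all genes). None of the 19 passed the adjusted threshold. In whole larvae, fewer cells of a type and less RNA per cell cannot be told apart. Globin genes encode the oxygen-carrying chains of larval red cells, and they lie in clusters of near-identical copies, so the split of reads between them is uncertain. The table holds a pair of genes with the symbol hbae1.3, and the one of smaller p had 150.5, 81.9 and 188 CPM at 0.1 µM, against 237, 136 and 199 CPM in controls (log2 fold change -0.49, SE 0.0935, adjusted p = 0.139 with the block). Its β chain counterpart hbbe1.3, picked out after its values were seen, had 112, 71.2 and 217 CPM at 0.1 µM, against 175, 124 and 226 CPM in controls. In both genes libraries 1 and 2 were lower at 0.1 µM, and library 3 was close to its control. Without the libraries numbered 3, both hbae1.3 genes, hbbe1.2 and hbbe1.3 were among the 18 genes past the adjusted threshold of the block fit. That fit was added after seeing the data and leaves out the pair that did not share the difference. These calls are therefore favoured by the choice of libraries and are not separate support. For all 19 genes together, the mean log2 ratio of exposed over control was -0.28 in the pair numbered 1, -0.47 in that numbered 2 and 0.057 in that numbered 3. The summed level was 1441, 959.7 and 2202 CPM at 0.1 µM and 1937, 1302 and 2169 CPM in controls, so the groups overlapped. The list median was -0.16, and -0.13 with the trend of fold change over gene length removed.

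Of 40 skeletal muscle genes, 10 were lower and 0 higher at 0.1 µM at an unadjusted p under 0.05 with the block (25%, against 4.56% of all genes), and 18 were lower in all 3 pairs, against 12.3% of all genes. None passed the adjusted threshold. The fast troponin T gene tnnt3b had 2691, 2624 and 2499 CPM at 0.1 µM, against 3102, 3159 and 2831 CPM in controls (log2 fold change -0.22, SE 0.0506, adjusted p = 0.413 with the block). The fast myosin light chain gene mylz3 had 3917, 3914 and 3747 CPM at 0.1 µM, against 4578, 4428 and 4131 CPM in controls. The exposed libraries of both genes lay below all controls, and mylz3 had a log2 fold change of -0.18 with the block. The differences were small throughout: the 40 log2 fold changes ran from -0.22 to 0.12, their median was -0.0701, and every one of the 40 intervals lay within 1.5-fold. The giant sarcomere protein gene ttn.1, which was lower at 10 µM than at 0.1 µM, was at 0.01 here. The 40 genes summed to 117516, 123404 and 112742 CPM at 0.1 µM and 129605, 127528 and 117550.0 CPM in controls.

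Cytosolic ribosomal protein genes, the structural proteins of the ribosome, were lower in all 3 pairs in 35 of 70 cases and higher in all 3 in 0, against 12.3% and 12.1% of all genes. At an unadjusted p under 0.05 with the block 7 were lower and 0 higher (10%, against 4.56% of all genes), and 0 passed the adjusted threshold. Examples are rpl26, with 655, 649.9 and 635 CPM at 0.1 µM, against 772, 732 and 674 CPM in controls, and rpl38, with 118, 122 and 113 CPM at 0.1 µM, against 128, 128 and 139 CPM in controls. The groups did not overlap in these 2 genes. The list median was -0.0676, with 69 of 70 intervals within 1.5-fold. These are short genes, and the median was -0.029 once the trend of fold change over gene length was removed. With genes in 5 classes of length, the median log2 fold change was -0.020 in the shortest class and 0.0076 in the longest.

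Other tissue lists also held members below control. Exocrine pancreas genes had 5 of 21 lower and 1 higher at an unadjusted p under 0.05 with the block (28.6%, against 4.56% of all genes), and their mean log2 ratio was -0.26 in the pair numbered 1, 0.011 in that numbered 2 and -0.014 in that numbered 3. The elastase gene cela1.1 had 3.75, 2.57 and 1.91 CPM at 0.1 µM, against 5.39, 3.13 and 2.85 CPM in controls. It was lower in all 3 pairs, unlike the list mean, and its level lay far below the list median of 322 CPM. Of 9 tested hatching gland and lectin genes 2 were lower and 1 higher (33.3%, against 4.56%). The lower ones were the hatching enzyme genes he1.2, with 12.7, 11.8 and 14.7 CPM at 0.1 µM, against 17.8, 13.2 and 25.1 CPM in controls, and he1.1, with 32.2, 77.3 and 44.3 CPM at 0.1 µM, against 34.9, 88.8 and 62.2 CPM in controls, and the higher one was lect2l, with 19.8, 24.8 and 16.4 CPM at 0.1 µM, against 15.6, 17.5 and 14.8 CPM in controls. Reads of the he1 copies can be shared. In the heart list the median was -0.11, with 7 of 18 lower in all 3 pairs, against 12.3% of all genes, and 1 higher. The mean log2 ratio of the list was -0.073, -0.051 and -0.073 in the pairs numbered 1, 2 and 3. Its 1 member past the adjusted threshold with the block, actc1a of chromosome 19, was higher. Cartilage and bone genes had 0 of 28 at an unadjusted p under 0.05, pigment cell genes 1 higher and 1 lower of 22, and lens crystallin genes 1 higher and 1 lower of 29.

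**Figure D4:**
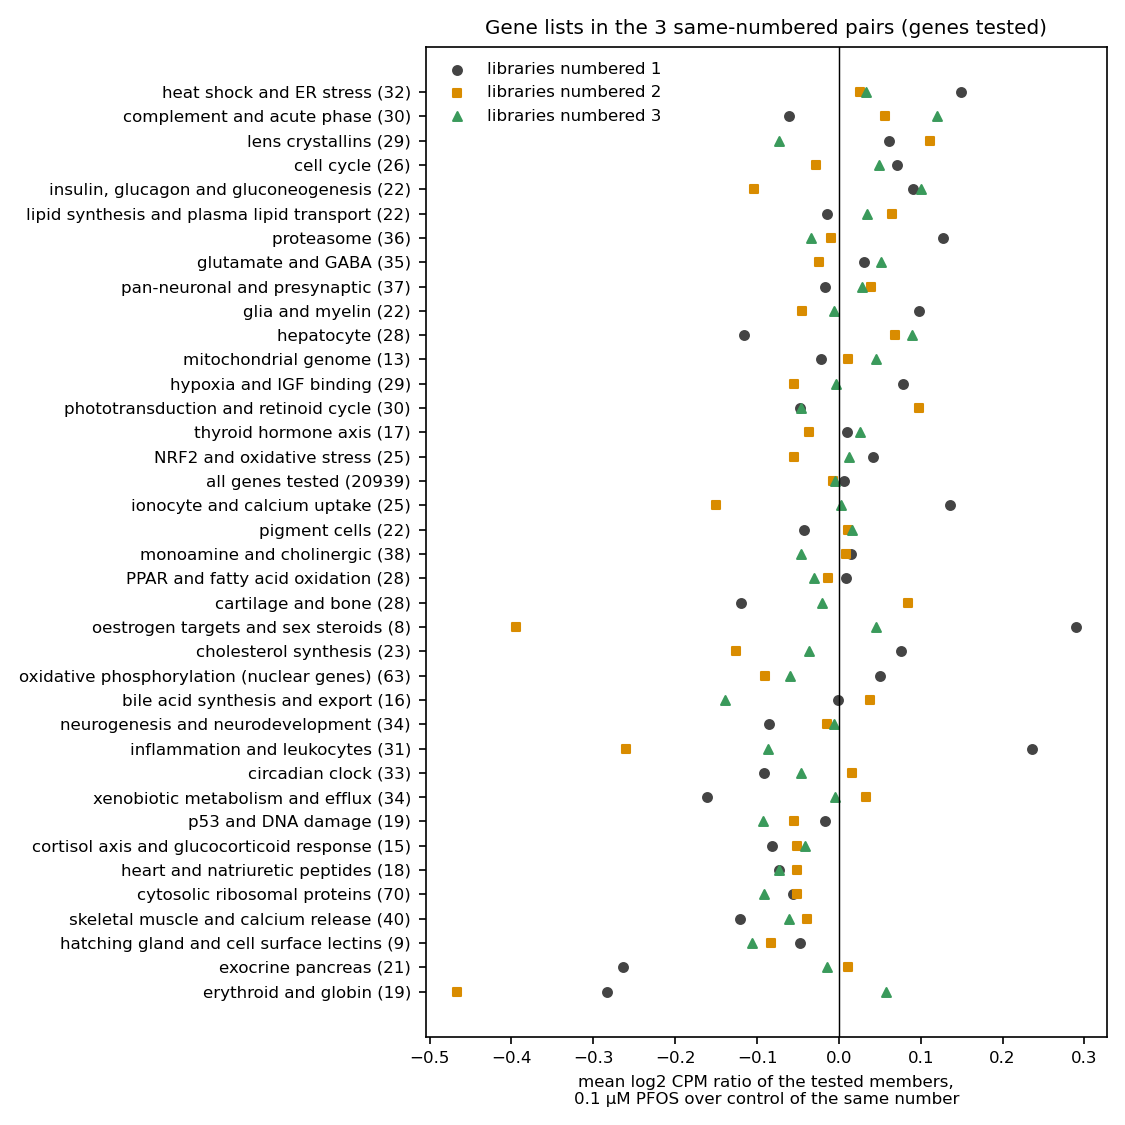
Mean log2 CPM ratio of 0.1 µM PFOS over control (x axis) for 37 gene lists and all tested genes (rows, with the number of genes tested), given separately for the pairs of libraries numbered 1, 2 and 3. The list means of skeletal muscle, ribosomal protein, heart, p53, cortisol, neurogenesis and hatching gland genes were below 0 in all 3 pairs. That of heat shock genes was above 0 in all 3 pairs. Pair medians did not share 1 sign in the cortisol list (-0.062, 0.068 and -0.083) or the hatching gland list (0.023, -0.068 and -0.16). Of all single genes, 12.3% were lower and 12.1% higher in all 3 pairs. Erythroid, pancreas and inflammation genes moved differently from pair to pair.

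Liver and lipid genes carry the processes PFOS is best known for in rodents, and none of them passed at this dose. In the PPAR and fatty acid oxidation list 0 of 28 genes passed the adjusted threshold, 27 had an interval within 1.5-fold, and the median was -0.0223. The carnitine palmitoyltransferase gene cpt1aa averaged 42.0 ± 3.35 CPM at 0.1 µM and 38.3 ± 2.45 CPM in controls (log2 fold change 0.13, 95% interval -0.07 to 0.33; SD, n = 3 each). The mitochondrial β oxidation gene hadhaa was the 1 member at an unadjusted p under 0.05, with 35.9, 41.8 and 38.2 CPM at 0.1 µM, against 40.2, 48.0 and 48.3 CPM in controls. The PPAR target angptl4 was at -0.09 (95% interval -0.35 to 0.17) and fabp10a, for the fatty acid binding protein of liver, at -0.12 (-0.33 to 0.09).

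In the bile acid list 3 of 16 genes were lower and 0 higher at an unadjusted p under 0.05 with the block (18.8%, against 4.56% of all genes), and none passed the adjusted threshold. They were the bile acid receptor gene nr1h4, with 5.25, 4.22 and 5.06 CPM at 0.1 µM, against 6.68, 5.80 and 6.51 CPM in controls, its target nr0b2a, with 19.6, 25.8 and 22.1 CPM at 0.1 µM, against 23.4, 26.99 and 31.8 CPM in controls, and cyp7a1, the rate-limiting enzyme of bile acid synthesis. The level of cyp7a1 was 48.5, 61.7 and 88.4 CPM at 0.1 µM, against 76.7, 69.6 and 80.9 CPM in controls, with exposed library 1 lowest and exposed library 3 highest of the 6. Its log2 fold change was -0.23 with the block, and -0.015 without the libraries numbered 1. The bile salt export pump gene abcb11b was at 0.08 (95% interval -0.12 to 0.29). Cholesterol synthesis genes had 2 of 23 lower and 0 higher (8.70%), and lipid synthesis and transport genes 1 higher and 1 lower of 22 (9.09%), both against 4.56%.

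Xenobiotic metabolism genes had 2 of 34 higher and 2 lower at an unadjusted p under 0.05 with the block (11.8%, against 4.56% of all genes). The dioxin receptor target cyp1a averaged 46.0 ± 2.52 CPM at 0.1 µM and 45.6 ± 2.80 CPM in controls (log2 fold change 0.01, 95% interval -0.17 to 0.20; SD, n = 3 each). Another target of that receptor, tiparp, had 37.7, 37.1 and 34.5 CPM at 0.1 µM, against 32.8, 32.4 and 30.9 CPM in controls, with the groups apart by 0.18 on the log2 scale.

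In endocrine lists 0 of 17 thyroid axis genes and 0 of 8 oestrogen and sex steroid genes reached an unadjusted p under 0.05 with the block, and the cortisol list had 1 higher and 1 lower of 15. The higher one was pck1 and the lower one mt2, which are counted again in the insulin and NRF2 lists. An interval within 1.5-fold was found for 2 of the 8 sex steroid genes, against 71.1% of all genes, so for the other 6 a larger difference was not bounded. Of 13 thyroid intervals within 1.5-fold out of 17, the thyroid transporter gene slco1c1 may serve as an example, with 6.85, 7.86 and 9.004 CPM at 0.1 µM, against 7.13, 6.33 and 6.95 CPM in controls.

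The stress lists held members on both sides. The p53 and DNA damage list had 4 of 19 lower and 0 higher at an unadjusted p under 0.05 with the block (21.1%, against 4.56% of all genes), of which gadd45ba had 108, 142 and 122 CPM at 0.1 µM, against 149, 172 and 128 CPM in controls and sesn1 323, 271 and 334 CPM at 0.1 µM, against 352, 307 and 399 CPM in controls. Both were lower in all 3 pairs and overlapped between groups. In the heat shock and ER stress list 3 of 32 were higher and 2 lower (15.6%, against 4.56%). In that list 9 were higher in all 3 pairs and 2 lower, against 12.1% and 12.3% of all genes, and its mean log2 ratio was 0.15, 0.026 and 0.033 in the pairs numbered 1, 2 and 3. In the NRF2 list 2 of 25 were higher and 1 lower (12%, against 4.56%). Inflammation and leukocyte genes had 4 of 31 lower and 0 higher (12.9%, against 4.56%), namely socs3a, cd28l, nfkbiab and nfkbiaa, and 11 of the 31 intervals lay within 1.5-fold, against 71.1% of all genes. The mean log2 ratio of that list was 0.24 in the pair numbered 1, -0.26 in that numbered 2 and -0.086 in that numbered 3. Of 33 circadian clock genes 5 were lower and 1 higher (18.2%, against 4.56%). The clock repressor gene nr1d4b had 51.9, 40.7 and 49.8 CPM at 0.1 µM, against 63.7, 45.8 and 60.8 CPM in controls, and the clock output gene hlfb had 10.24, 6.93 and 8.76 CPM at 0.1 µM, against 8.35, 5.53 and 6.29 CPM in controls. The circadian median was -0.0689, and the mean log2 ratio was -0.092, 0.017 and -0.046 in the pairs numbered 1, 2 and 3. In all 3 pairs 5 clock genes were higher and 5 lower, against 12.1% and 12.3% of all genes. Collection times are not given in the labels, so a difference in time of day between libraries was not tested.

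The remaining lists of liver, metabolism, growth and endocrine genes held no gene past the adjusted threshold, and their counts here are those at an unadjusted p under 0.05 with the block, where 2.23% of all genes were higher and 2.33% lower. Hepatocyte genes had 2 of 28 higher and 1 lower (10.7% in either direction), with a list median log2 fold change of -0.0013. The lower one was apom, which encodes a lipoprotein component, at 58.1, 74.7 and 69.1 CPM at 0.1 µM, against 77.1, 77.0 and 76.2 CPM in controls. Complement and acute phase genes had 2 of 30 higher and 0 lower (6.67%), with the complement gene c7a at 14.6, 13.1 and 13.9 CPM at 0.1 µM, against 11.3, 13.1 and 10.97 CPM in controls. Insulin, glucagon and gluconeogenesis genes had 1 of 22 higher (4.55%), pck1, a gluconeogenic enzyme, at 889.6, 627 and 569.9 CPM at 0.1 µM, against 736, 645 and 491 CPM in controls. Hypoxia and insulin-like growth factor binding genes had 3 of 29 higher and 1 lower (13.8%), the lower one being igfbp1b at 5.90, 6.14 and 4.93 CPM at 0.1 µM, against 5.09, 9.26 and 8.34 CPM in controls, where library 1 ran against the other pairs.

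Ionocyte and calcium uptake genes had 2 of 25 higher and 0 lower (8% against 4.56% of all genes), with the sodium pump gene atp1a1a.2 at 259, 212 and 215 CPM at 0.1 µM, against 228, 182 and 194 CPM in controls. Proteasome genes had 1 of 36 higher and cell cycle genes 1 of 26 lower, the replication helicase gene mcm7, at 49.1, 46.3 and 37.4 CPM at 0.1 µM, against 61.3, 51.2 and 43.2 CPM in controls. Nuclear genes of oxidative phosphorylation had 2 of 63 lower and 0 higher, all 63 intervals lay within 1.5-fold, and their median was -0.0363. The 13 protein genes of the mitochondrial genome had 2 lower and 0 higher (15.4%, against 4.56%). Their median was 0.0439, on the other side of 0 from those 2 genes. Of the 13, 5 were higher in all 3 pairs and 0 lower, against 12.1% and 12.3% of all genes.

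In the oxidative stress list the higher genes were hmox1a and keap1a, with keap1a, a repressor of NRF2, at 23.9, 23.8 and 22.3 CPM at 0.1 µM, against 21.7, 21.9 and 16.5 CPM in controls. The lower one was the metallothionein gene mt2, picked out after its values were seen, at 31.6, 56.9 and 38.3 CPM at 0.1 µM, against 41.1, 78.5 and 41.0 CPM in controls. The groups of mt2 overlapped, and it was lower in 3 of 3 pairs.

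Genes that earlier results of these data had named as changed at higher doses were looked up at 0.1 µM. The list holds 26 symbols. Of their genes 20 passed the filter on low counts in these 6 libraries, both genes with the symbol cyp2y3 among them, and 0 passed the adjusted threshold. With the block 5 were lower and 0 higher at an unadjusted p under 0.05 (25%, against 4.56% of all genes), and 4 of the 20 intervals lay within 1.5-fold, against 71.1% of all genes. The median log2 fold change of the 20 was -0.24, and -0.030 without exposed library 1. Within pairs the median log2 ratio was -0.41, -0.045 and -0.19 in those numbered 1, 2 and 3. In all 3 pairs 5 of the 20 were lower and 0 higher, against 12.3% and 12.1% of all genes. The list mixes genes that rise and genes that fall at 10 µM, with log2 fold changes over control from -6.05 to 4.96. Its signed medians and counts therefore do not show a shift towards the levels at 10 µM. Of the 5 genes lower at an unadjusted p under 0.05 with the block, igfbp1b was higher at 10 µM than in controls. The list also holds copies of 1 family, such as he1.1 and he1.2. In exposed library 1 cyp2aa8 was at 13.6 CPM, against 32.9 and 43.1 CPM in exposed libraries 2 and 3 and 44.6, 26.4 and 59.23 CPM in controls.

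In fits on all 15 libraries, 28 such genes were tested, and 0, 0, 0 and 25 passed at 0.1, 1, 5 and 10 µM against the same controls. The median absolute log2 fold change was 0.32, 0.38, 0.69 and 2.79 at those doses. These genes were listed because they had changed at higher doses in these same data. The calls and medians at higher doses therefore partly follow from that choice and do not show a dose response. For igfbp1b, an insulin-like growth factor binding protein, the mean level was 7.57 ± 2.19 CPM in controls and 5.67 ± 0.659, 8.98 ± 2.57, 11.7 ± 4.94 and 67.0 ± 15.3 CPM at 0.1, 1, 5 and 10 µM (SD, n = 3 each). For abcb11b it was 28.4 ± 1.51 CPM in controls and 30.1 ± 2.34, 32.1 ± 6.66, 51.2 ± 3.98 and 46.4 ± 4.72 CPM at the 4 doses. The level of he1.2 was 18.7 ± 5.95 CPM in controls and 13.1 ± 1.46, 6.35 ± 4.12, 10.0 ± 4.38 and 1.73 ± 1.02 CPM at the 4 doses. At 0.1 µM none of these 3 genes passed against control.

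**Figure D5:**
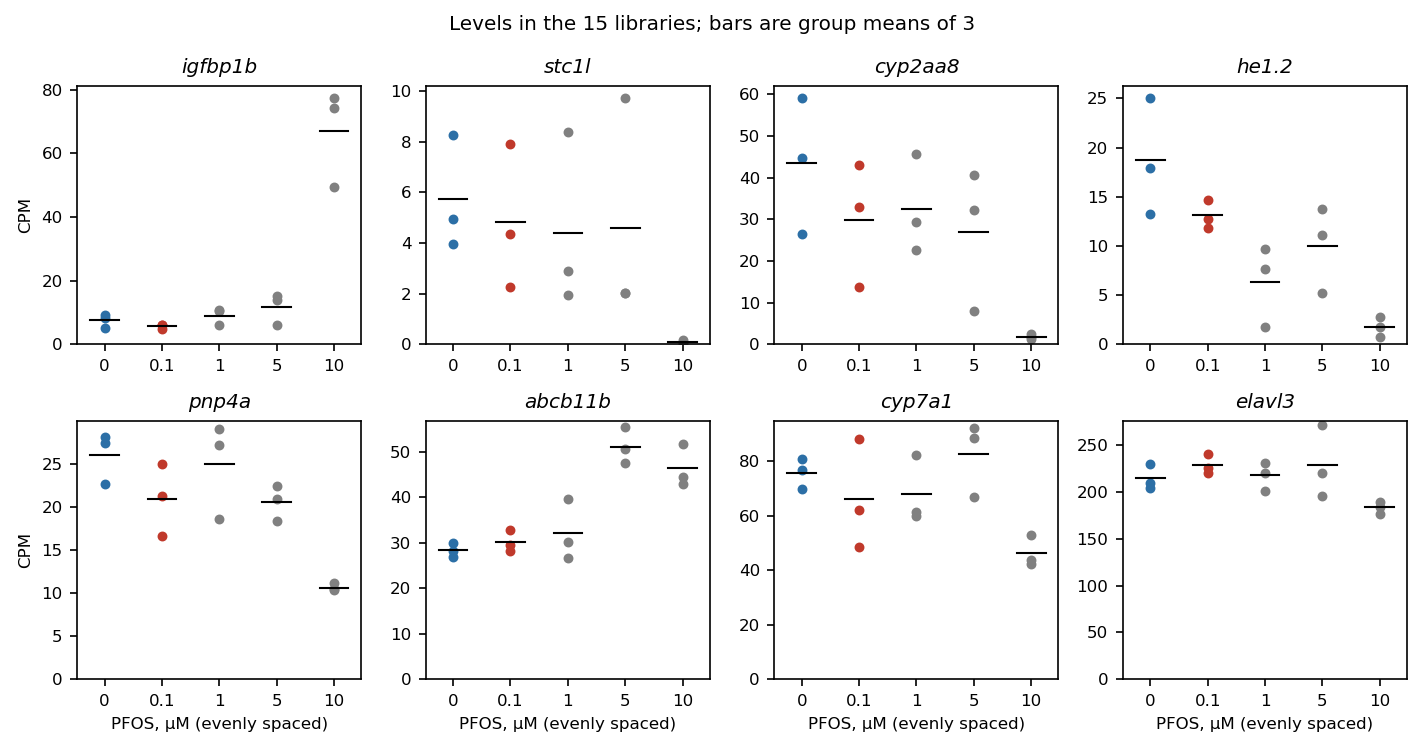
CPM scaled over 15 libraries (y axis, from 0) of 8 genes in control (blue), 0.1 µM PFOS (red) and 1, 5 and 10 µM PFOS (grey) libraries along evenly spaced doses, with group means of 3 as bars. The 0.1 µM libraries overlap the range of the controls in all 8 genes, and the 10 µM libraries stand apart in igfbp1b, stc1l, cyp2aa8, he1.2 and pnp4a.

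Set directly against the other exposed groups, contrasts that do not use the control means, 0.1 µM PFOS stood apart from 10 µM in the main test and not from 1 or 5 µM. Against 10 µM, 2632 of 21477 genes passed (12.3%), 1203 higher and 1429 lower at 0.1 µM, and DESeq2 called 2743. Without exposed library 2 or 3 of the 0.1 µM group the count was 1250 or 1072. Against 1 µM the count was 0 (0%) in both edgeR and DESeq2, 362 genes (1.69%) had an unadjusted p under 0.05 in edgeR, and 3 passed with the block. Against 5 µM the count was 0 (0%) in edgeR, 10 in DESeq2 and 0 with the block, and 870 genes (4.05%) had an unadjusted p under 0.05 in edgeR. The gene abcb11b was lower at 0.1 µM than at 10 µM (log2 fold change -0.63, adjusted p = 0.00594), and against 5 µM it was at -0.77 (adjusted p = 0.140). The gene cd28l was lower at 0.1 µM than at 10 µM (-1.65, adjusted p = 0.000171). The genes zgc:158463, CT027638.1 and AL935186.10 did not pass between 0.1 and 10 µM (adjusted p = 0.748, 0.515 and 0.274).

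The transcript table gave no call. Of 29857 tested transcripts 0 passed in edgeR without the block (0%, with 614 or 2.06% at an unadjusted p under 0.05) and 0 with it (1040 or 3.48%). The single transcript of zgc:158463 had a log2 fold change of 0.74 with the block and an adjusted p of 0.995. For pcdh2ab9, transcript 207 held most of the counts, with 30.2, 85.0 and 95.7 CPM at 0.1 µM, against 24.3, 42.8 and 58.6 CPM in controls. The larger of the 2 ribosomal RNAs of the mitochondrial genome, NC_002333.4, was higher in every exposed library, with 488, 515 and 484 CPM at 0.1 µM, against 428, 397 and 399.8 CPM in controls (log2 fold change 0.28, adjusted p = 0.201 with the block). The other one, NC_002333.17, was at 0.02.

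The size of difference that these libraries could have missed was read from the 95% intervals. Without the block 14891 of 20939 genes (71.1%) had an interval within a 1.5-fold change in either direction and 19033 (90.9%) within 2-fold. With the block the counts were 16565 (79.1%) and 19819 (94.7%). For the genes outside each count the intervals do not bound the difference to that size. With the block, the intervals of all genes that passed except CR383676.2 reached past 1.5-fold. Among these, only that of si:dkey-275b16.2 reached past 2-fold.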

How the data were processed

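The deposited tables give a read count for each gene and each transcript, with Ensembl identifiers, symbols and coordinates. The authors' deposited values are all whole and are read here as estimated counts. They went through a rounding step, which leaves whole values unchanged. Gene values equalled the sum of their transcripts in 96.8% of cases, and the largest difference was 2. TPM, scaled to length and library size, are a second deposited unit, per the file headers, and served for tissue markers and for gene length. Aligner, counting tool, genome build and strand setting were not given in the sources used here. Extraction used RNAzol and library quantification a KAPA kit, per the labels' protocols. There were 24 other per-sample columns for genes and 39 for transcripts, which went unused. Columns at 10 µM carry the numbers 2, 3 and 4 where titles carry 1 to 3, so they were assigned to the group only and never paired.

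Counts of the 3 libraries at 0.1 µM and 3 controls were filtered with filterByExpr, scaled by TMM and tested two-sided in R 4.3.3 with edgeR 4.0.16 (glmQLFit, glmQLFTest), with Benjamini-Hochberg adjustment over all 20939 tested genes and a threshold of 0.05. All adjusted p-values for single genes come from edgeR unless another tool is named. The planned test had no block. Libraries of the same number deviated together from their group means (Pearson r over genes 0.45, 0.37 and 0.47, against -0.31 to -0.14 for different numbers), so the number was taken to pair them. The pairing comes from this pattern and the shared numbers in the titles, since the labels do not say what a number stands for. Libraries of a group differed by a chi-square of 6.81 to 14.2 per gene, more than counting noise. Comparisons with the higher doses used all 15 libraries in 1 model of 5 group means. SE is the absolute log2 fold change over the square root of F, and intervals are at 95%. CPM use TMM-scaled library sizes, and correlations, pair ratios and sums of squares use log2 CPM with a prior count of 2. Alternatives were DESeq2 1.42.0, limma 3.58.1 (voom), other filters, scaling, depths and sets of libraries. The fit was tested on simulated counts.

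The comparison, its 37 gene lists (1117 symbols, 95.5% in the table, 992 tested) and the reference genes were chosen with earlier results of these data known, so they are described by counts and medians and not tested as sets. Some genes belong to more than 1 list, among them pck1, mt2 and lect2l, so counts of different lists are not separate. Named genes, with clone-like symbols left out and the higher group averaging 1 CPM or more, were the 10 of smallest p in each direction without the block and 5 with it, all that passed with the block, the 2 of smallest p in each list and the reference genes. Where a count of a few genes is spelled out by name, members outside this rule were chosen after their values were seen.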

Additional observations from a re-analysis of the deposited data

How the results depend on the processing

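The count of genes past the adjusted threshold was 0 without a replicate block and 7 with it. It was 1 in DESeq2 without the block, 3 in DESeq2 with it and 8 in limma-voom with it, and 0 in limma-voom without it and under the other scaling, filters, depth and larger sets of libraries. Leaving out single libraries or numbers gave 0 to 71, the upper values being 41, 71 and 18 for the block fit on 4 libraries, which was added after seeing the data, as were the block fits in DESeq2, in limma-voom and on 12 libraries. Without both libraries numbered 1 and without the block, pcdh2ac alone passed. The 251 genes at an unadjusted p under 0.05 became 955 with the block, 599 with the block on 9 libraries, 152 and 1048 with the block in DESeq2 and limma-voom, 141 with at least 5 CPM in 3 libraries and 82 in DESeq2. They ranged from 230 to 1243 with libraries left out. Genes with an interval within 1.5-fold ranged from 12269 to 15106 with libraries left out. The 0 transcripts became 1 without exposed library 2 or both libraries numbered 2, and 2 without control 2.

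Against 1 µM the block gave 3 genes. Against 5 µM the count was 1 without the filter, 10 in DESeq2 and 0 to 1 with exposed libraries left out. Against 10 µM the count ran from 1072 to 2421 with exposed libraries left out.

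The direction of 14 named genes turned with libraries left out, none of them past a threshold when it turned. Log2 fold changes ran from -0.15 to 1.18 in actc1a of chromosome 19, -0.17 to 0.93 in rhcga, -0.17 to 1.46 in nos2a, -0.72 to 0.065 in fosab, -1.49 to 0.14 in hsd17b3 and -0.70 to 0.11 in prl. They ran from -0.46 to 5.37e-05 in cyp7a1, -0.013 to 0.14 in abcb11b, -0.20 to 0.015 in angptl4, -0.82 to 0.084 in stc1l, -0.038 to 0.18 in gfap, -0.053 to 0.073 in cyp1a, -0.048 to 0.083 in mbpa and -0.81 to 0.15 in cyp2aa9. After thinning to the smallest total cyp1a was at -0.0037. The cause of these changes was not tested.

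List medians moved by more than the spread between libraries in 31 of 975 values over lists and settings. That spread is the within-group SD of the list mean without the block. In the erythroid list it exceeds the size of the median, so the count does not show that medians were stable. Depth limits genes near 1 CPM, such as htr7a, and in genes whose interval reaches past 1.5-fold the difference is not bounded to that size.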
